A study of Homo sapiens with 8 samples.

Results

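The MAX network is a family of transcription factors that share MAX or its relative MLX as a binding partner, and 10 of its genes were followed here: *MYCN*, *MYCL*, *MAX*, *MLX*, *MNT*, *MGA*, *MXD1*, *MXI1*, *MXD3* and *MXD4*. They were chosen by name, out of 19360 protein-coding genes of GENCODE release 44. Each gene was given the H3K27Ac-marked enhancer regions that overlapped its gene body or lay within 50 kb of its start site, the 5′ end of the gene in GRCh38. In 4 human medulloblastoma (MB) lines this gave 73 regions out of 88550, of which MB002 held 24, D425 22, HD-MB03 13 and UW228 14.

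MB002, D425 and HD-MB03 are labelled as Group 3 MB (G3-MB) and UW228 as SHH subtype MB. MB002 and HD-MB03 were grown in a tumor stem medium, D425 and UW228 in medium with fetal bovine serum, and no line was treated. Each line had 1 H3K27Ac ChIP-seq library and 1 input library, so there were no replicates, no test was possible, and every value describes a single pair of libraries. The values of UW228 were also made on a later date than those of the G3-MB lines, and that date, the subgroup and the line cannot be told apart.

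MYC, MYCN and MYCL are basic helix-loop-helix leucine zipper proteins that bind the E-box CACGTG as heterodimers with MAX and activate genes of growth and the cell cycle. The MXD proteins, MNT and MGA compete for MAX at the same sites and repress, the MXD proteins and MNT through SIN3 and histone deacetylases and MGA through a Polycomb complex. MLX is the partner of the glucose-sensing factors MLXIP and MLXIPL and also dimerises with some of the repressors. *MYC* amplification is a known lesion of G3-MB, and *MYCN* amplification is known in SHH and Group 4 MB.

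H3K27Ac is a histone mark of active enhancers and promoters. The signal of a region was its H3K27Ac value minus its input value, floored at 0, in rpm (reads scaled to library size) per bp multiplied by the length. Regions were ranked by it within a line, rank 1 being the strongest, and those past the ROSE cutoff were called super-enhancers (SEs), the rest typical enhancers (TEs). The lines held 26072, 26317, 15286 and 20875 regions in the order MB002, D425, HD-MB03 and UW228, with 363, 431, 302 and 753 SEs. Since HD-MB03 had the fewest regions, ranks are also given as a percent of the regions of the line. The median region signal was 890, 717, 846 and 1690 in the same order, and the median region length was 1585, 1287, 1369 and 2264 bp. Signals of different lines can therefore not be assumed to be on a common scale, which was not tested.

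The labels of the lines were set against marker genes of the subgroups. At 7 G3-MB markers, MB002 had SEs at 3 genes, D425 at 3, HD-MB03 at 2 and UW228 at 0. *OTX2*, a homeodomain factor of G3-MB, had a SE in the 3 G3-MB lines and no region in UW228. In contrast, *NPR3* had regions only in UW228 (summed signal 25870), and *GABRA5* had a region only in MB002. At the best *OTX2* region the input per bp was 53.3 (D425), 35.2 (MB002) and 5.84 (HD-MB03) times the median of the line. The *OTX2* calls therefore stood on raised input, and its part in them was not tested. Of 8 SHH markers, UW228 had regions at 7 (61.9% of all genes had one) and a SE at 0, whereas HD-MB03 had SEs at *GLI1*, *PTCH1* and *PDLIM3*. UW228 had the lowest summed signal of the 4 lines at *GLI1* (1432) and *PTCH1* (879), where HD-MB03 had 38490 and 45433. *ATOH1*, which marks the granule neuron lineage, had no region in any line. *SFRP1* had a region only in UW228 (summed signal 7879), and *EYA1* was highest there, at 64029 next to 5749 in MB002, 785 in D425 and no region in HD-MB03.

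Regions were found at most members in every line, but SEs at few. All 10 members had a region in MB002 and in D425, where 70.8% and 72.9% of all genes had one. In HD-MB03 and UW228, 7 members had a region, against 58.2% and 61.9% of all genes. HD-MB03 had a SE at 2 members, D425 at 1, and MB002 and UW228 at 0, which in the order MB002, D425, HD-MB03, UW228 stood beside 3.38%, 4.30%, 3.12% and 4.99% of all genes. The 3 gene and line pairs with a SE, out of 40, were *MNT* in D425, *MNT* in HD-MB03 and *MXI1* in HD-MB03, both genes of MAX-binding repressors. The members without any region were *MXD1*, *MXD3* and *MXD4* in HD-MB03 and *MYCN*, *MXI1* and *MXD4* in UW228.

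**Figure D1:**
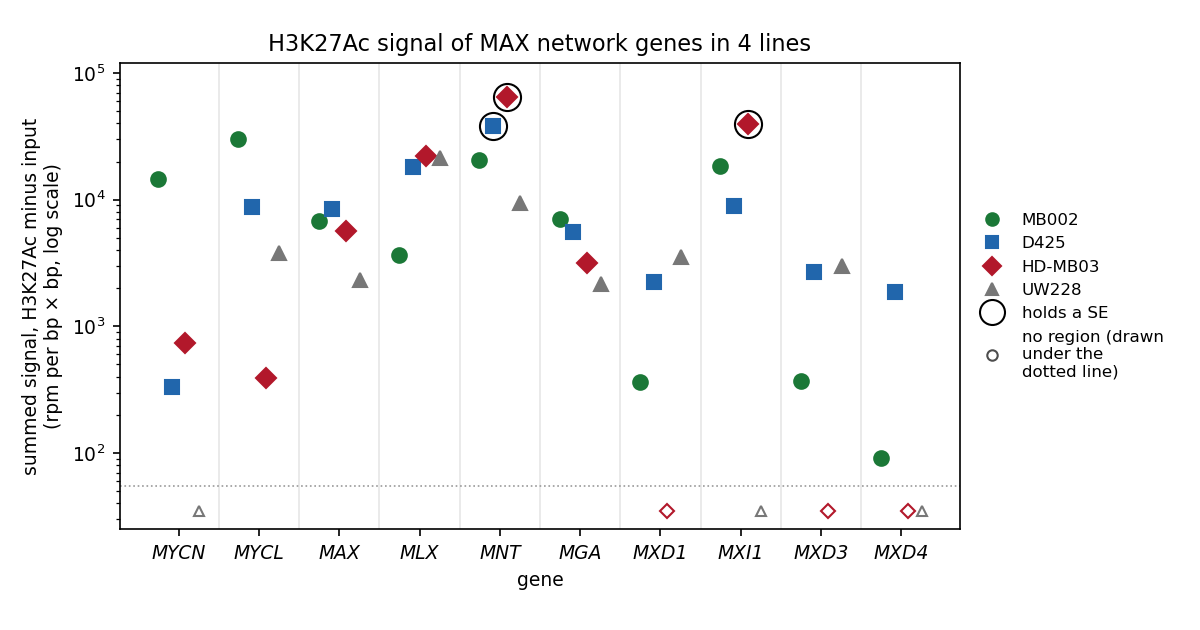
Summed H3K27Ac signal minus input (log axis, rpm per bp multiplied by bp) of all regions of each gene, with 1 point per line and 1 library pair per point. Open symbols under the dotted line mark genes with no region, and black circles mark the 3 pairs with a SE, where *MNT* stands at 37927 in D425 and 65161 in HD-MB03 and *MXI1* at 39534 in HD-MB03.

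*MYCN*, the paralogue of *MYC* expressed in neural progenitors, lies on chromosome 2 from 15940550 to 15947007 on the plus strand. The summed signal reached 14466 in MB002, 736 in HD-MB03 and 334 in D425, and UW228 had no region. MB002 stood apart from the other lines, with a signal 43.4 times that of D425, the lowest line with a region. The best region of *MYCN* in MB002 was a single peak 40.8 kb downstream of the start, chr2:15981351-15986875, which is 5525 bp long and had a signal of 9698 at 1.76 per bp, rank 2263 (8.68% of the line). A second stitched region of MB002, chr2:15942801-15965970, covered the 3′ part of the gene and the sequence behind it over 23170 bp, at only 0.206 per bp and rank 4478. Neither was a SE.

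In the other G3-MB lines the *MYCN* regions were short and weak. HD-MB03 had a region of 843 bp inside the gene, with a signal of 448, and one of 564 bp far upstream, with a signal of 288. D425 had only the upstream region, 1066 bp long, whose near edge lay 49.4 kb from the start, just inside the window. Within 25 kb of the start, D425 had no region at *MYCN*. In UW228 the nearest region lay 710 kb from the start, and only 2 regions lay within 1 Mb, compared with 12 in HD-MB03, 14 in D425 and 31 in MB002. The median input density of those regions, relative to the median of all regions of the line, was 1.03, 1.08, 1.02 and 0.845 (MB002, D425, HD-MB03, UW228), so the input around *MYCN* lay near the median in the G3-MB lines and below it in UW228.

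The region within *MYCN* was shared by MB002 and HD-MB03 over 843 bp. It lies in an intron, and its central 300 bases in hg38, plus strand, chr2:15943908-15944207, are shown because they are the only stretch in the gene body marked in more than 1 line.
*MYCN* intronic stretch: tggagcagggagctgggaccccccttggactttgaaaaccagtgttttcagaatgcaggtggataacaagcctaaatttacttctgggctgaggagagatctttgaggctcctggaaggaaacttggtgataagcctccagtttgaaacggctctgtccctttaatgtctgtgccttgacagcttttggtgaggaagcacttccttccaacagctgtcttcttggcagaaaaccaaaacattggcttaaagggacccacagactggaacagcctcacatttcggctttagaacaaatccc
Neither this stretch nor the centre of the upstream region shared by D425 and HD-MB03 held TAATCC, the core bound by homeodomain proteins such as OTX2 and CRX. Read on both strands, TAATCC stood in the central 300 bases of 19.2% of 14128 HD-MB03 regions of at least that length. The E-box CACGTG was in neither, and in 4.49% of those windows.

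*MYCL*, the third MYC paralogue, lies on chromosome 1 from 39895428 to 39902256 on the minus strand. From highest to lowest, MB002 had a summed signal of 29976, D425 8799, UW228 3768 and HD-MB03 389. MB002 was again the highest line, 77.1 times HD-MB03, and UW228 stood between the G3-MB lines. Most of the signal in MB002 (76.0%) came from a region of 44090 bp with 15 peaks, chr1:39816054-39860143, at rank 672 (2.58%), a TE whose centre was nearest to the start of *TRIT1*, a tRNA-modifying enzyme, and not to *MYCL*. Its near edge lay 42.1 kb from the *MYCL* start. D425 had a part of the same locus, 12163 bp with a signal of 6825 and rank 2847. HD-MB03 also had a region there, of 4483 bp with a signal of 2447 and rank 4197, but at 55.5 kb it fell outside the window, so the low value of HD-MB03 and its distance from MB002 rested on the edge.

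Within the *MYCL* gene body, the G3-MB lines each had a region and UW228 had none. These regions measured 567 bp in HD-MB03, 2462 bp in D425 and 8123 bp in MB002, with signals of 389, 1373 and 7208. UW228 instead had its 3 regions at 9.08 kb downstream and 31.4 and 49.6 kb upstream of the start, 2 of them nearest to *MFSD2A*, a lysolipid transporter, and its best rank was 8955 (42.9%). The UW228 region at 9.08 kb lay just past the end of the gene, inside the span of the MB002 region that reached into it. Over the 50 kb window HD-MB03 was 9.69 times lower than UW228. That ratio left out the HD-MB03 region at 55.5 kb and a UW228 region with a signal of 814 at 55.7 kb. The relative input density of the *MYCL* regions was 0.811 in HD-MB03, 1.20 in D425, 1.55 in MB002 and 1.67 in UW228. After the signal was divided by it, the log2 G3-MB mean minus UW228 moved from 0.31 to 0.82 and the best rank of MB002 from 672 to 1198. That log2 difference was 2.47 within 25 kb, 2.45 with the nearest gene only, 1.09 within 100 kb and 1.37 after division by the median region signal. For the mean signal per bp it turned to -0.91.

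*MYC* itself is not one of the 10 genes and is given for comparison. MB002 had a summed signal of 340819, D425 211226, UW228 24370 and HD-MB03 3638, with best ranks of 14, 7, 763 and 3111. The HD-MB03 value came from 1 region of 0.458 kb, and regions beyond the 50 kb window were not counted. The authors, who assigned genes with ROSE, place *MYC* among the top-ranked SE-associated genes of G3-MB lines. The best *MYC* regions of MB002 and D425 were SEs. Their relative input density was 23.8 and 62.8, and it was 153 in HD-MB03 against 0.998 in UW228, so the input was far above the median at *MYC* in the G3-MB lines. At the 10 members the best regions had relative input densities between 0.312 and 1.77 in all 34 gene and line pairs with a region. In MB002 the best region of *MYCL* stood on input 1.56 times the median and that of *MYCN* on input 1.36 times the median.

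**Figure D2:**
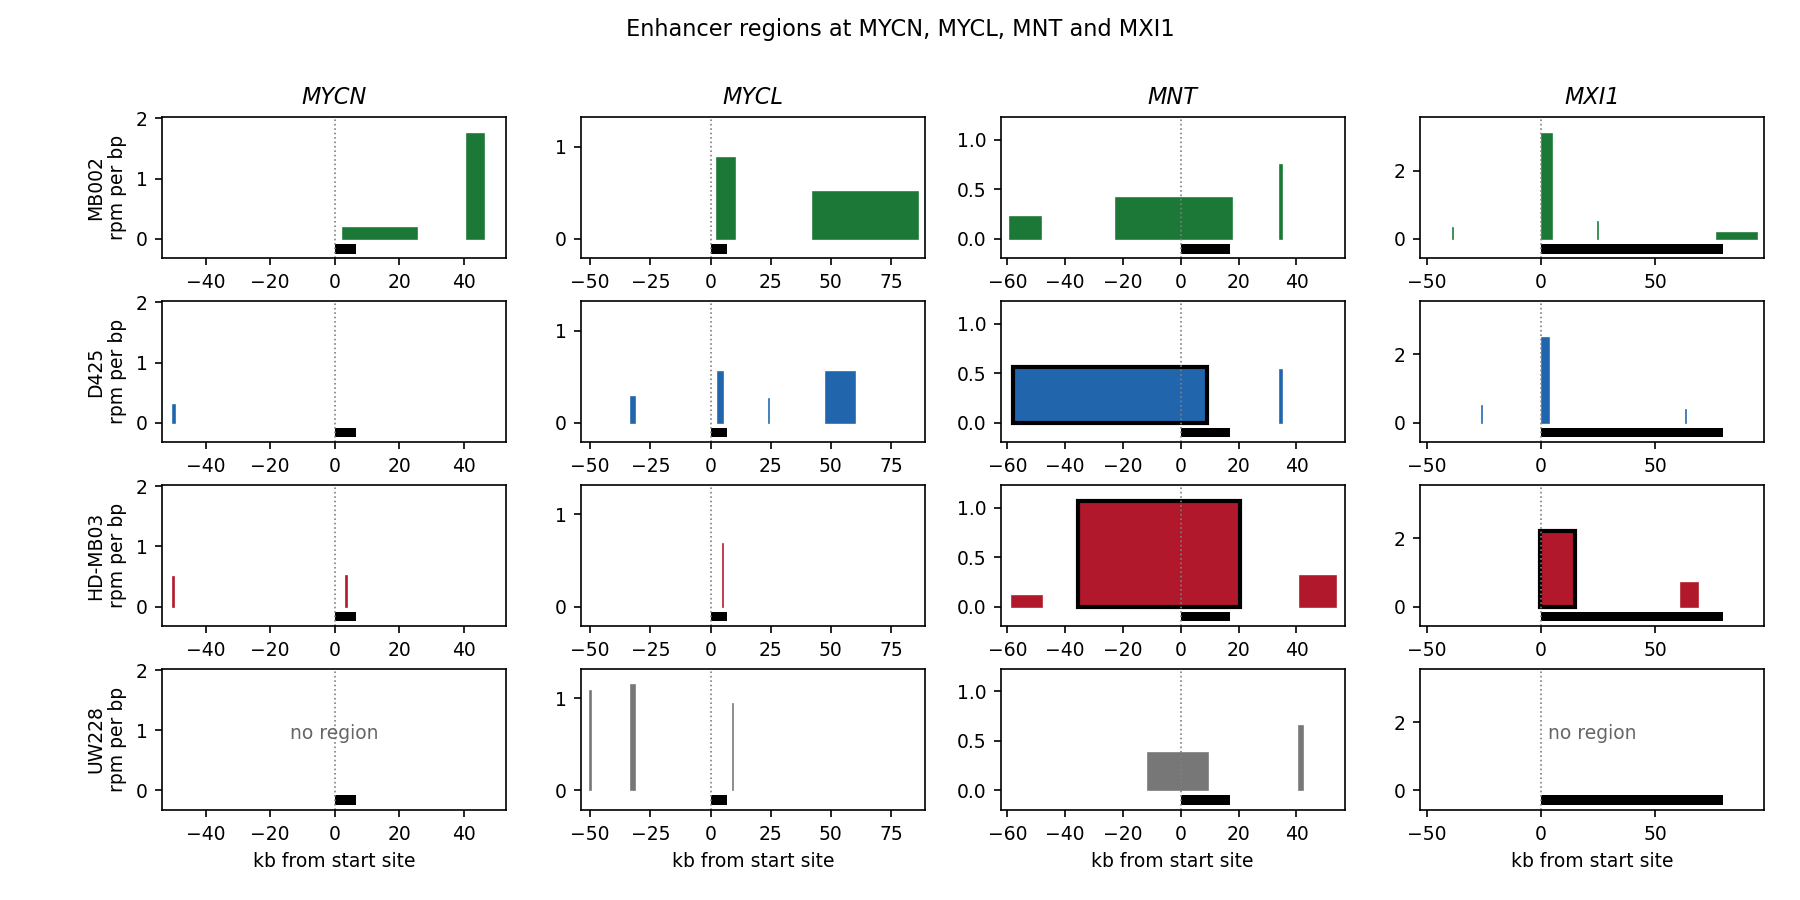
Enhancer regions of *MYCN*, *MYCL*, *MNT* and *MXI1* in each line, drawn from their first to their last base against the distance from the start site in kb (positive values run in the direction of transcription), with height giving the mean signal per bp. Black bars under the axis are gene bodies and thick outlines mark SEs, which lie across the start of *MNT* in D425 and HD-MB03 and of *MXI1* in HD-MB03, while *MYCN* and *MXI1* have no region in UW228.

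*MAX*, the obligate partner of the MYC proteins, lies on chromosome 14 from 65006174 to 65102695 on the minus strand. Over its regions D425 had a summed signal of 8459, MB002 6725, HD-MB03 5702 and UW228 2306. The G3-MB lines lay closer to each other than to UW228, at 3.67, 2.92 and 2.47 times its value. Nearly all of it, namely 98.1% in D425, 93.2% in MB002 and 84.1% in HD-MB03, came from 1 locus upstream of the gene, shared by those lines over 15659 bp and starting 34.7, 38.6 and 38.3 kb from the start. In the same order it ranked 2287 (8.69%), 3551 (13.6%) and 2540 (16.6%), and it was a TE in each line. In UW228 the best region was 1827 bp long, lay 2.66 kb into the gene and ranked 11266 (54.0%).

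The side on which *MAX* fell depended on the window. The mean log2 summed signal of the G3-MB lines minus that of UW228 was 1.57 within 50 kb. It was -2.50 within 25 kb or with the gene body alone, which leave out the upstream locus, and -1.0 within 100 kb, where UW228 had a region of rank 2694. In UW228 a region of 1704 bp with a signal of 1218 lay 53.4 kb from the start, just outside the window and inside the coordinates of the locus of the G3-MB lines.

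*MLX* lies on chromosome 17 from 42567072 to 42573239 on the plus strand. HD-MB03 had a summed signal of 22259, UW228 21208, D425 17983 and MB002 3626. MB002 was the low line, and D425 and HD-MB03 lay at 0.848 and 1.05 times UW228. This rested on the scale of the lines, since in multiples of the median region signal *MLX* stood at 25.1 in D425 and 26.3 in HD-MB03 but 12.5 in UW228 and 4.07 in MB002. On the log2 scale the G3-MB mean minus UW228 was -0.91, turned to 0.15 on that scale and was -1.77 after division by relative input density. The region of HD-MB03, 37664 bp with 5 peaks, ranked 333 (2.18%) with a signal just under the SE cutoff of 22917, and that of D425 ranked 809 and that of UW228 968. In every line the best region ended 11.4 to 25.3 kb upstream of *MLX*, outside its body, and every region given to *MLX* was nearest to another gene (*NAGLU*, *HSD17B1* or *TUBG1*). When regions were kept only for the nearest gene, *MLX* had none in any line. The relative input density of its best regions was 0.598 in UW228, 0.858 in HD-MB03, 0.970 in MB002 and 1.46 in D425, and after division of the signal by it *MLX* was called in HD-MB03 and UW228.

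**Figure D3:**
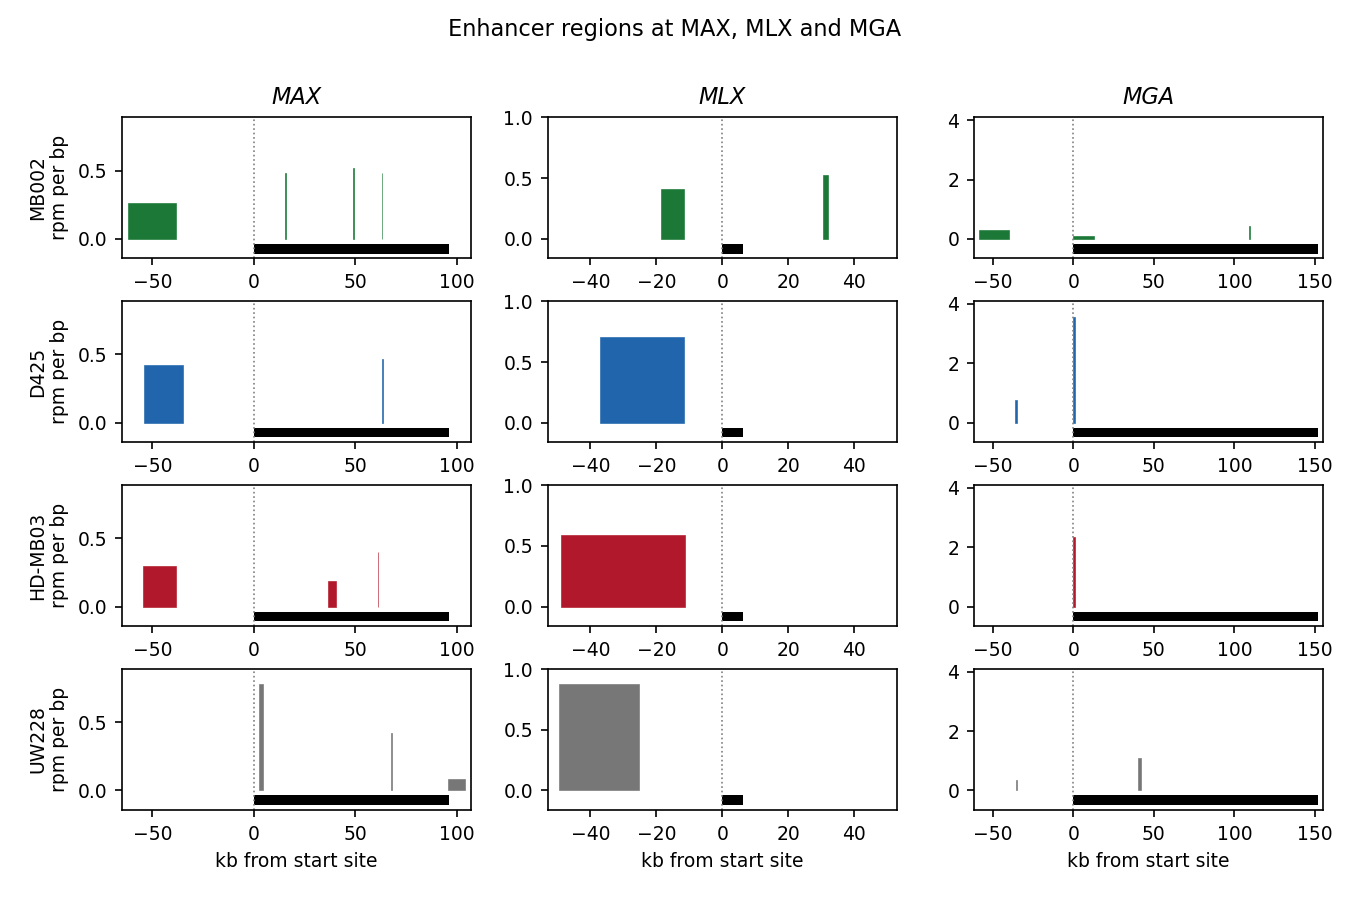
Enhancer regions of *MAX*, *MLX* and *MGA* in each line against the distance from the start site in kb, with height giving the mean signal per bp and black bars the gene bodies. The G3-MB lines share the region upstream of *MAX* and a region at the start of *MGA*, which is short and high in D425 (3.57 per bp) and HD-MB03 (2.34) and long and low in MB002 (0.108), and in UW228 the best region of either gene lies inside the gene.

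*MNT*, which encodes a broadly expressed MAX-binding repressor, had the highest summed signal of the 10 genes in D425 and HD-MB03. It lies on chromosome 17 from 2384073 to 2401104 on the minus strand. The summed signal fell from 65161 in HD-MB03 through 37927 in D425 and 20677 in MB002 to 9409 in UW228. The G3-MB lines were thus 6.93, 4.03 and 2.2 times above UW228. Among all genes with a signal, the 4 values stood at percentiles 99.3, 95.0, 85.1 and 67.1 of their lines.

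The *MNT* SE of HD-MB03, chr17:2380481-2436611, had 14 peaks over 56131 bp, a signal of 59784 and rank 33 (0.216%). The *MNT* SE of D425, chr17:2392197-2459043, had 16 peaks over 66847 bp, a signal of 37354 and rank 211 (0.802%). MB002 had a TE at the same place, 40431 bp with 6 peaks at rank 1021 (3.92%), and UW228 one of 21116 bp with 7 peaks at rank 3360 (16.1%). *MNT* was the only member whose start was covered by a region in all 4 lines, and for both SEs it was the gene with the nearest start. The height per bp was 0.428, 0.559, 1.07 and 0.393 in the order MB002, D425, HD-MB03 and UW228, so D425 differed from MB002 and UW228 more in the length of the region than in its height. Stitching made part of that length. The D425 SE ran over a stretch that MB002 held as a separate region, chr17:2449357-2460387, with a signal of 2607.

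The input at *MNT* differed between the lines, with a relative density for the best region of 0.527, 0.690, 1.09 and 0.312 in that same order. On the log2 scale the G3-MB mean minus UW228 was 1.98, and it was 0.87 after the signal was divided by the input density, 0.45 for the mean signal per bp and 3.03 after division by the median region signal of the line. Dividing by the input density put *MNT* past the recomputed cutoff in all 4 lines. Ranked by mean signal per bp instead, *MNT* was not called in any line, and the same held when regions within 2.5 kb of a start were left out. The SE calls in D425 and HD-MB03 were each kept under 8 of 10 alternatives.

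The 300 bases around the *MNT* start (RefSeq, GRCh38.p14, minus strand, chr17:2401011-2401310) are shown because regions of all 4 lines covered this start and because they hold an E-box, in capitals.
*MNT* promoter: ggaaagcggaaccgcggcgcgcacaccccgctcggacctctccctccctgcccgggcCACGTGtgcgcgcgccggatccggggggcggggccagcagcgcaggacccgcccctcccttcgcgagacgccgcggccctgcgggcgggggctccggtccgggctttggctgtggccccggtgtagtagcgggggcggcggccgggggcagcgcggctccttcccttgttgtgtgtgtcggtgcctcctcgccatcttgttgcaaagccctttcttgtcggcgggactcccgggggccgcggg
Among the 15 RefSeq promoters of the 10 genes, each from 250 bases before to 50 after a start, 3 held CACGTG, those of *MLX*, *MNT* and *MXD4*. The motif reads the same on both strands and stood in 7.26% of all 35114 promoters of the same length. It was in neither of the printed promoters that follow.

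*MXI1* encodes another MXD family repressor. It lies on chromosome 10 from 110207605 to 110287365 on the plus strand. HD-MB03 had a summed signal of 39534, MB002 18439 and D425 8939, and UW228 had no region, the nearest lying 118 kb from the start. The 3 G3-MB lines thus all had a called region where UW228 had none, and their summed signals differed by 4.42 times. The SE of HD-MB03, chr10:110207087-110222460, was short, with 2 peaks over 15374 bp, but had a signal of 33901 and rank 148 (0.968%), and *MXI1* had the nearest start.

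The same 5′ end of *MXI1* was marked in the other G3-MB lines. The region of MB002 measured 4634 bp at rank 1333 (5.11%) and that of D425 3498 bp at rank 2144 (8.15%), beginning 43 bp behind the start. By height the order of the lines turned, with 2.21 per bp in HD-MB03, 2.5 in D425 and 3.1 in MB002. Ranked by mean signal per bp, *MXI1* was called in MB002 and D425 and not in HD-MB03. The relative input density was 0.925 in HD-MB03, 1.46 in D425 and 0.885 in MB002. The 3498 bp shared by the 3 lines hold a second RefSeq start of *MXI1*, at 110210231, whose promoter is shown because it is the *MXI1* start covered in all of them (GRCh38.p14, plus strand, chr10:110209981-110210280).
*MXI1* promoter: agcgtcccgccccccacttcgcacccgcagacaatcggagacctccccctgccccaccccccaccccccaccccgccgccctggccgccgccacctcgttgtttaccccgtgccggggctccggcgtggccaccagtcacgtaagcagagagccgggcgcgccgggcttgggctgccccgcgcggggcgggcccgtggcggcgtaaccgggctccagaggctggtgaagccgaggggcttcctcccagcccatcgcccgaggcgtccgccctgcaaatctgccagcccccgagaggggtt
All letters are in lower case since no CACGTG or TAATCC was found in it.

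*MGA*, the largest protein of the network and a scaffold of the Polycomb complex PRC1.6, lies on chromosome 15 from 41621134 to 41773081 on the plus strand. MB002 had a summed signal of 7048, D425 5557, HD-MB03 3175 and UW228 2163. UW228 was the lowest line, by 3.26, 2.57 and 1.47 times. The order of MB002 and D425 rested on the edge of the window, since a D425 region with a signal of 4146 and rank 4547 lay 50029 bp from the start and was left out. In the G3-MB lines a region covered the upstream start of the gene, and they shared 1187 bp there. This region was only 1371 bp long in D425 and 1358 bp in HD-MB03 but high, at 3.57 and 2.34 per bp, with ranks 3952 (15.0%) and 3500 (22.9%). In MB002 it was stitched to a second peak over 12856 bp, at 0.108 per bp, and the better region, at rank 4120, lay 39.9 kb upstream and nearest to *TYRO3*, a receptor tyrosine kinase.

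UW228 had no region at the upstream start of *MGA*. Its best region, chr15:41661118-41662984, lay inside the gene behind the downstream RefSeq starts at 41660405 and 41660747, at 1.09 per bp and rank 9496 (45.5%). The lines thus differed in where a region was called along *MGA*. Since regions flanking promoters were removed before ranking, a start without a region was not shown to lack H3K27Ac. With *MGA* ranked by mean signal per bp, D425 rose to rank 101 and was called. The relative input density of the best region was 0.958, 1.73, 1.00 and 0.834 (MB002, D425, HD-MB03, UW228). On the log2 scale the G3-MB mean minus UW228 was 1.21, and it was 0.79 after the signal was divided by this density, when the best rank of D425 moved from 3952 to 6147. The upstream promoter (GRCh38.p14, plus strand, chr15:41620974-41621273) is shown because its start was covered in the 3 G3-MB lines only.
*MGA* upstream promoter: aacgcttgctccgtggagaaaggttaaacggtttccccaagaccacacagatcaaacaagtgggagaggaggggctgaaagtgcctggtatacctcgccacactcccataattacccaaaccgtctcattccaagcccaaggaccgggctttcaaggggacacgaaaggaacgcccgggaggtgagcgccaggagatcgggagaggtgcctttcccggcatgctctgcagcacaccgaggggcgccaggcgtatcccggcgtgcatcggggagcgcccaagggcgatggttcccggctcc

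The other 3 MXD genes had no region in HD-MB03 and no SE in any line. *MXD1*, a repressor induced on differentiation, lies on chromosome 2 from 69897688 to 69942945 on the plus strand. The summed signal was 3533 in UW228, 2243 in D425 and 361 in MB002, and HD-MB03 had no region, the nearest lying 130 kb away. UW228 was the highest line, 9.79 times MB002 and 1.58 times D425, but in multiples of the median region signal D425 was the higher, at 3.13 against 2.09. D425 and UW228 shared a region over 13147 bp at the 3′ end of the gene, nearest to *ASPRV1*, and UW228 also had a region of its own between that one and the RefSeq start at 69915109, 1556 bp long at 1.04 per bp.

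*MXD3*, an MXD gene linked to proliferating cells, lies on chromosome 5 from 177301461 to 177312757 on the minus strand. UW228 had a summed signal of 2996, D425 2704 and MB002 368, and HD-MB03 had no region. UW228 stood at 1.11 times D425 and 8.14 times MB002, and in multiples of the median region signal D425 was again the higher, at 3.77 against 1.77. Both ratios rested on the edge of the window, since 4 D425 regions with signals of 95.6 to 2115 lay 50.2 to 58.2 kb from the start and an MB002 region with a signal of 2648 lay at 50.2 kb. The 3 lines overlapped by 158 bp at about 13 kb upstream of the start. The absence in HD-MB03 rested on the same edge, where a region of 8583 bp with a signal of 4793 and rank 2543 lay 50.1 kb from the start.

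*MXD4* lies on chromosome 4 from 2247432 to 2262109 on the minus strand. The summed signal was 90.5 in MB002, the lowest of the 10 genes there, and 1860 in D425, with no region in HD-MB03 or UW228. The nearest regions of those lines lay 82.1 and 119 kb from the start. In D425 the better region covered the 3′ part of the gene over 11976 bp at 0.0991 per bp and was nearest to *HAUS3*, a spindle protein.

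Set side by side, 5 of the 10 genes had a higher summed signal in each of the 3 G3-MB lines than in UW228 (*MYCN*, *MAX*, *MNT*, *MGA* and *MXI1*), beside 21.8% of all genes. In 2 genes, *MXD1* and *MXD3*, each G3-MB line was below UW228, beside 25.8% of all genes. With 3 lines against 1 and no replicates, this is a count and not a test. The median region signal was highest in UW228 (1690), so dividing by it raised every G3-MB value relative to UW228. The 5 genes above UW228 therefore had to stay above, and this was no check on them. After that division *MXD1* and *MXD3* were no longer below UW228 in all 3 lines, which the same shift favours. With the 100 kb window *MXD3* turned to above UW228 in all 3 lines, *MXD1* was no longer below, and the genes below were *MAX* and *MLX*. *MXD1* also left the genes below with any transcript start, and *MXD3* without input subtraction, after division by relative input density and in the gene body alone. For *MXI1* and *MYCN* the lack of any region in UW228 fixed the side, whatever the scaling. *MYCN* did not stay above within 25 kb or in the gene body alone, where D425 had no region either. *MAX* changed sides with the window, and *MNT* did not stay above with the mean signal per bp or without promoter regions. *MGA* did not stay above in all 3 lines with the mean signal per bp, within 25 kb, in the gene body alone, with any transcript start, without promoter regions or with the nearest gene only. Other genes joined those above, namely *MYCL* within 25 kb, in the gene body alone and with the nearest gene only. *MLX* did so within 25 kb and *MXD4* within 100 kb. Both *MYCL* and *MLX* were below with the mean signal per bp, and *MLX* also after division by relative input density.

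**Figure D4:**
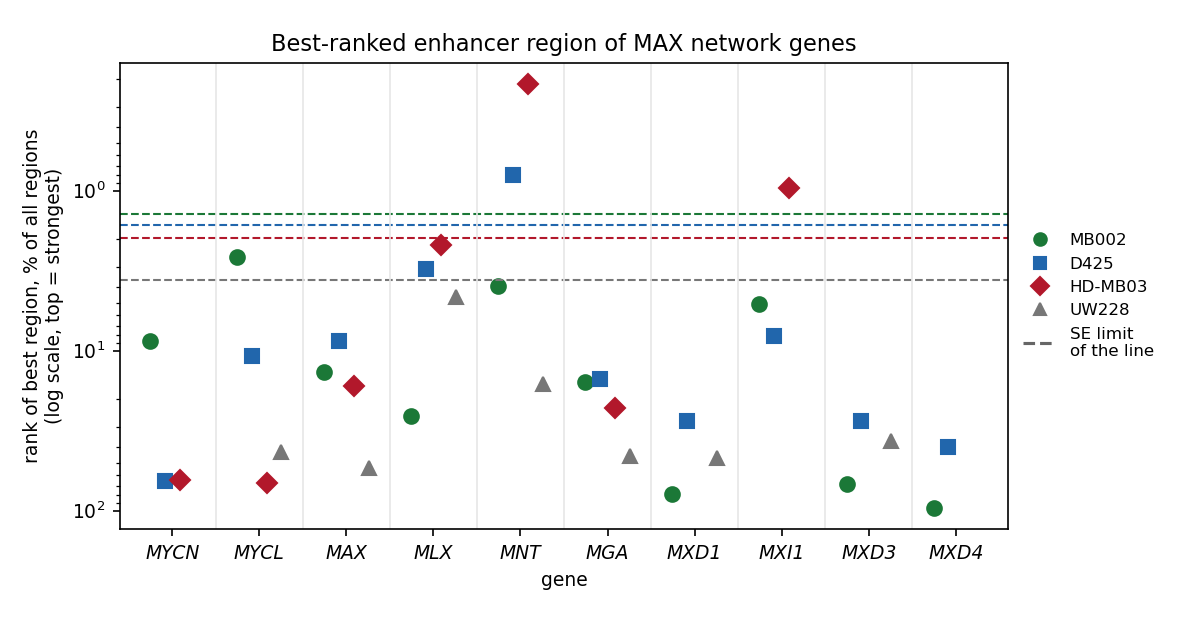
Rank of the best region of each gene as a percent of all regions of the line (log axis, strongest at the top), with 1 point per line and a dashed line at the share of regions called as SE in that line. *MNT* at 0.216% in HD-MB03 and 0.802% in D425 and *MXI1* at 0.968% in HD-MB03 lie past their limits, and *MLX* at 2.18% in HD-MB03 lies just short of its limit of 1.98%.

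The 73 regions fell into 44 separate loci, of which 27 were seen in 1 line, 10 in 2, 4 in 3 and 3 in all 4 lines. The 3 loci of all 4 lines lay at *MYCL*, *MLX* and *MNT*, and at *MYCL* and *MLX* they were chained through partly overlapping regions with no base common to all lines. A locus of the 3 G3-MB lines without UW228 was found at *MGA* and *MXI1*. At *MAX* the like locus also held the UW228 region at 53.4 kb, which the 50 kb window left out. Of the 73 regions, 35 lay in a gene body, 9 covered the start and 39 were nearest to the member itself. In 7 of the 10 genes no region covered the start in any line.

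That absence has a limit in the processing, since the authors removed regions flanking promoters before ranking. Of all genes, 8.16%, 7.32%, 6.13% and 5.68% had a region over the start (MB002, D425, HD-MB03, UW228), and 0.990%, 1.12%, 1.45% and 0.786% of regions lay wholly within 2.5 kb of a start. A member without a region at its start was therefore not shown to lack H3K27Ac there. Over the members with a region, the median summed signal was 6886, 7008, 5702 and 3533, next to 3731, 3547, 3288 and 4503 over all genes with a region. The median summed length was 23907, 15278, 20487 and 10511 bp, next to 7742, 8292, 6340 and 7222 bp. By height the comparison differed, with a median signal per bp of 0.414, 0.477, 0.686 and 0.873, next to 0.585, 0.535, 0.526 and 0.646. The median best rank was 3836, 3400, 2540 and 8955, next to 6719, 6204, 4057 and 6841.

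The other genes of the network were taken as 35 listed partners and cofactors. Of these, MB002 had a region at 28, D425 at 29, HD-MB03 at 25 and UW228 at 25, and 1 had a SE in each line, next to the 70.8%, 72.9%, 58.2% and 61.9% of all genes with a region and the 3.38%, 4.30%, 3.12% and 4.99% with a SE. The SE gene was *MYC* in MB002 and D425, *CBX3* in HD-MB03 and *HCFC1* in UW228. *CBX3*, a heterochromatin protein of PRC1.6, had a best rank of 602, 4883, 130 and 5835 in the order MB002, D425, HD-MB03 and UW228. *HCFC1*, a MYC-binding coactivator, ranked 390 in MB002, 633 in HD-MB03 and 511 in UW228 and had no region in D425.

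Counts by group are given in the order MB002, D425, HD-MB03 and UW228 and stand beside the same shares of all genes. Among the partners of MAX and MLX, *MLXIPL* had no region in UW228 and *MLXIP* had one in every line. Of 12 activator cofactors, 11, 11, 10 and 10 had a region, and of 6 genes of MYC turnover, 5, 5, 3 and 4. Of 5 repressor cofactors of the MXD proteins and MNT, 3, 5, 4 and 5 had a region and 0 had a SE in any line. Among them *SIN3A*, the corepressor scaffold, had a TE of rank 310 in HD-MB03, next to the limit of 302 SEs, and this gene was named after its values were seen. In the other lines the best rank of *SIN3A* was 9716 (MB002), 14373 (D425) and 12386 (UW228). Of 9 partners of MGA in PRC1.6, 6, 5, 5 and 4 had a region.

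Genes with a like pattern were sought by the Euclidean distance of log2(best region signal + 1) over the 4 lines, leaving out genes that shared a region with the member. The nearest to *MYCN* were *GJB7*, *SMIM8* and *C6orf163*, all at 0.596 because they shared 1 locus with best signals of 9916, 469, 566 and 0. The nearest to *MYCL* were *NUDT21* and *OGFOD1* at 0.954, also of 1 locus, and *SPINT1* at 1.05. The nearest to *MAX* were *ARTN* at 0.623, *BLM* at 0.631 and *MRPS22* at 0.638. With 4 lines, the distances describe these libraries alone.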

How the data were processed

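For MB002, D425, HD-MB03 and UW228, the enhancer values of H3K27Ac and input ChIP-seq were used as deposited by the authors. The authors aligned reads to GRCh38 with Bowtie2 2.3.0, processed them with SAMtools 1.9, removed duplicates and multi-mappers, called peaks with MACS2 2.2.6, excluded promoter flanks and stitched peaks within 12 kb (file headers) with ROSE. The deposited signal is rpm (reads scaled to library size) per bp multiplied by length, the deposited score is the rank within the line, and a column holds the SE call. Depth is unknown.

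Input was subtracted and floored at 0 here, and relative input density is input per bp over the median of the line (Python 3.11.15, pandas 2.3.3, numpy 2.4.6, matplotlib 3.10.9). Regions were given to genes of GENCODE 44 within 50 kb of the start or in the gene body. Assignment and cutoff were tested on simulated data. The members and lists were chosen with earlier results of these data known. Named genes were the 10 members, listed network genes with a SE and *MYC*, the nearest gene of each member SE, and the 3 genes nearest in pattern to *MYCN*, *MYCL* and *MAX*. Genes nearest to a TE of a member, subgroup markers, *MLXIP*, *MLXIPL* and *SIN3A* are named outside this rule and were chosen after their values were seen. Promoter sequences are from RefSeq (GRCh38.p14), where all 10 genes matched. Alternatives changed input subtraction, cutoff, signal per bp, input correction, window, start site, promoter regions, nearest gene and scaling. Other lines, tissues and RNA data were not analysed here.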

Additional observations from a re-analysis of the deposited data

How the results depend on the processing

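No paired analysis was possible because each line had 1 library of each kind and no test was made. Ranking by mean signal per bp gave 1 member with a SE in MB002 (*MXI1*), 2 in D425 (*MGA*, *MXI1*) and 0 in HD-MB03. Division by relative input density gave 1 in MB002 (*MNT*), 3 in HD-MB03 (*MLX*, *MNT*, *MXI1*) and 2 in UW228 (*MLX*, *MNT*). Without promoter regions, D425 and HD-MB03 had 0, and 4 members had a region in HD-MB03. With the gene body only, 4 members had a region in UW228. Members above UW228 in all 3 G3-MB lines numbered 3 with mean signal per bp, 3 with the gene body only and 3 without promoter regions. Members below it numbered 1 without input subtraction, 4 with mean signal per bp, 1 with any transcript start and 0 after division by the median region signal. For *MAX* the mean log2 difference, 1.57, turned to -2.50 within 25 kb, -1.0 within 100 kb and -2.50 in the gene body. The cause was not tested, except that the narrower settings leave out the upstream locus by construction.

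The 3 SE calls were each kept under 8 of 10 alternatives and lost with mean signal per bp and without promoter regions. Their best ranks ran from 77 to 11643 for *MNT* in D425, from 29 to 2834 for *MNT* in HD-MB03 and from 111 to 2189 for *MXI1* in HD-MB03. With unknown depth, a missing region was not detected and is not shown to be absent.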
